A study of Rattus norvegicus with 6 samples.

Results

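The platelet-derived growth factor (PDGF) system of the rat was described here by 6 genes, the ligand genes Pdgfa, Pdgfb, Pdgfc and Pdgfd and the receptor genes Pdgfra and Pdgfrb. They were matched by exact symbol among 20653 genes, and each of the 6 had a row. Transcripts were measured by bulk RNA sequencing in primary mesenchymal stem cells from rat nasal mucosa, in 3 libraries of cells labelled EMSC and 3 libraries of cells labelled NPS-EMSC. All 6 libraries carry SD as the genotype label, and the series title describes the modified cells as overexpressing neuropeptide S, a secreted peptide that signals through a G protein-coupled receptor. Age, promoter, vector and clone number were not found in the sources used here, nor whether the EMSC had received an empty vector, so effects of gene delivery or selection cannot be told apart from those of the peptide. The labels also do not say that the libraries of a group came from separate cultures or animals, so p-values measure the spread between these libraries, which may be technical.

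PDGFs are dimeric growth factors that drive the division and migration of mesenchymal cells. The A and B chains are released in active form after cleavage by furin-like proteases inside the cell, whereas the C and D chains carry an N-terminal CUB domain that has to be cut off outside the cell. The alpha receptor, encoded by Pdgfra, binds the A, B and C chains, and the beta receptor, encoded by Pdgfrb, binds mainly the B and D chains. Both are receptor tyrosine kinases that recruit PI3K, phospholipase C gamma, SHP2 and Src family kinases when phosphorylated. Alpha receptors mark fibroblasts and oligodendrocyte progenitors, and beta receptors mark pericytes and vascular smooth muscle.

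The libraries held 39082245 to 40261205 counted reads. Reads of the Nps gene checked the labels, with 93566, 77014 and 85916 reads in NPS-EMSC and 0, 0 and 10 in EMSC. Marker genes of mesenchymal stem cells were present (Thy1 stood at 417 ± 8.15 CPM in EMSC, SD, n = 3, where CPM is the read count scaled to a common library total), and 6 of the 8 on the list were called higher and 2 lower in NPS-EMSC (adjusted p under 0.05). Of all genes tested, 29.7% were called higher and 29.5% lower. Summed over their lists, endothelial markers reached 4.21 to 5.39 CPM in EMSC and 3.67 to 4.26 in NPS-EMSC, and platelet markers 2.91 to 3.83 and 1.45 to 1.62. Macrophage markers summed to 75.5 to 84.5 CPM in EMSC and 39.1 to 41.7 in NPS-EMSC. Most of the EMSC sum came from Lyz2, at 52.5 ± 7.70 CPM, and most of the NPS-EMSC sum from Cd14, at 31.4 ± 0.614 CPM. The 10 markers of oligodendrocyte progenitors summed to 75.5 to 82.4 and 57.4 to 63.1 CPM, most of it from the proteoglycan gene Cspg5 at 69.9 ± 2.20 and 54.1 ± 3.55 CPM. On that list 6 genes, among them Olig1 and Olig2, had no row, Sox10 had a mean under 0.06 CPM in both groups, Ptprz1 fell from 5.58 ± 2.06 to 0.914 ± 0.0356 CPM, and Pcdh15 did not pass, at 3.95 and 5.07 CPM.

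In these cells the PDGF genes shifted in composition. NPS-EMSC had less Pdgfc, Pdgfd and Pdgfra transcript, more Pdgfa and slightly more Pdgfrb, and no read of Pdgfb. Of the 6 genes, 5 had enough reads to be tested, with at least 250 reads in every library, and all 5 were past the threshold of 0.05 for the adjusted p (Benjamini-Hochberg over all genes tested), 2 of them higher and 3 lower. This is to be read against the background, since 59.3% of the 14505 genes tested passed, or were called, 29.7% as higher and 29.5% as lower. In all 5 tested genes the 3 values of 1 group lay outside the 3 of the other, which held for 64.7% of the genes tested. Pdgfb, which was not tested, also did not overlap, but with only 3, 2 and 6 reads in EMSC and 0 in each NPS-EMSC library. The median log2 change of the 5 tested genes was -0.93, against -0.0048 over all genes tested. This median is the value of Pdgfd, and the 5 genes ran from -1.72 to 1.24, so it does not describe a common shift.

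Levels are compared between genes as FPKM, the authors' read counts scaled by gene length and library total. Fold changes come from the test on read counts and are given as log2 changes, NPS-EMSC minus EMSC, with a standard error (SE).

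**Figure D1:**
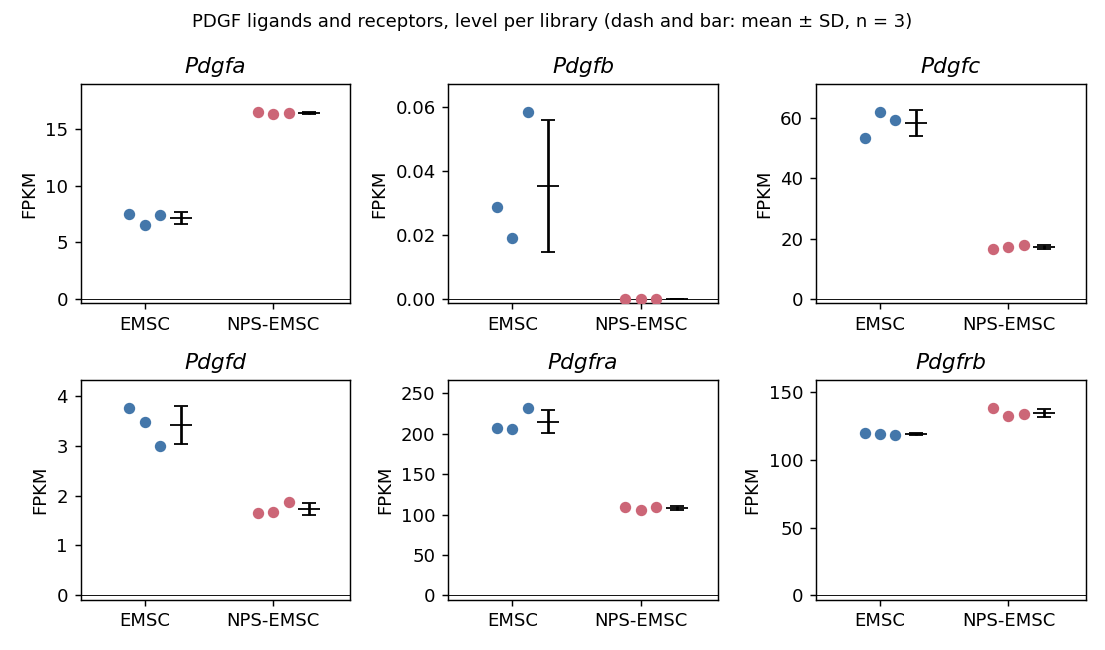
FPKM of each PDGF gene (vertical axis, linear, a scale of its own for each gene) in the 3 EMSC (blue) and 3 NPS-EMSC (red) libraries, with the mean and SD beside the points. Pdgfc, Pdgfd and Pdgfra lie lower in NPS-EMSC, Pdgfa and Pdgfrb higher, and Pdgfb stays under 0.06 FPKM in every library.

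Among the ligands, Pdgfc was the most abundant in EMSC. It encodes a chain that is secreted as a latent dimer and acts mainly through the alpha receptor. Its level was 53.4, 62.0 and 59.4 FPKM in the EMSC libraries and 16.6, 17.1 and 17.9 FPKM in the NPS-EMSC libraries. All NPS-EMSC values were below the lowest EMSC value by a wide margin. Pdgfc fell from 170 ± 14.7 to 51.6 ± 1.89 CPM (SD, n = 3), a log2 change of -1.72 (SE 0.06, adjusted p = 7.14e-18), or 3.28-fold. This was the largest fitted change among the 5 tested PDGF genes, and 3.55% of all genes tested had a lower log2 change.

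Pdgfa, the gene of the A chain, moved the other way. Its level was 7.51, 6.54 and 7.47 FPKM in EMSC and 16.6, 16.4 and 16.5 FPKM in NPS-EMSC, so the NPS-EMSC libraries were close to each other and all above EMSC. It rose from 18.7 ± 1.27 to 44.3 ± 0.541 CPM (SD, n = 3; log2 change 1.24, SE 0.07, adjusted p = 1.95e-13), or 2.36-fold. Of all genes tested, 94.9% had a lower log2 change.

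Pdgfd, whose product binds the beta receptor, was a minor ligand in both groups. It stood at 3.76, 3.47 and 3.004 FPKM in EMSC and at 1.65, 1.67 and 1.87 FPKM in NPS-EMSC, with no overlap. It fell from 13.0 ± 1.40 to 6.79 ± 0.475 CPM (SD, n = 3; log2 change -0.93, SE 0.13, adjusted p = 7.98e-07), or 1.90-fold. Its SE was the largest of the 5 and its read counts were the lowest.

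Pdgfb, the gene of the B chain, which binds both receptors, was barely detected. It had 3, 2 and 6 reads in EMSC and 0, 0 and 0 reads in NPS-EMSC. It did not pass the filter on low counts and was not tested. Over the group, 11 reads in EMSC against a floor of 3 reads set for NPS-EMSC give a ratio of 3.50. This ratio takes the 11 reads as exact, so it is not a lower bound on the fold. The edgeR fit without the filter gave a smaller change, a log2 change of -1.48, and DESeq2 a larger one, of -4.25. The size of the change was therefore not settled by these few reads. With the filter removed, edgeR gave adjusted p = 0.0509 for it and DESeq2 gave adjusted p = 0.0986, so a difference was not detectable by either test at this depth. The zero reads allow up to 0.0259 CPM in NPS-EMSC.

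Both receptor genes were abundant. Pdgfra ranked 278th of 20653 genes by FPKM in EMSC and 598th in NPS-EMSC, and Pdgfrb 521st and 474th. Pdgfra stood at 207, 206 and 232 FPKM in EMSC and at 110, 105 and 109 FPKM in NPS-EMSC. Every NPS-EMSC value was below every EMSC value, and EMSC replicate 3 was the highest of all. Pdgfra fell from 1617 ± 109 to 837 ± 22.9 CPM (SD, n = 3; log2 change -0.95, SE 0.05, adjusted p = 1.65e-14), or 1.93-fold. In bulk samples, fewer cells of a type and less RNA per cell cannot be told apart.

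Pdgfrb changed least. It stood at 120, 119 and 118 FPKM in EMSC and at 138, 132 and 134 FPKM in NPS-EMSC. The groups did not overlap, although the difference was small. It rose from 632 ± 6.03 to 738 ± 21.1 CPM (SD, n = 3; log2 change 0.22, SE 0.04, adjusted p = 9.67e-05), or 1.17-fold. Its fitted value was 0.18 to 0.24 over all alternative settings and library exclusions tried, and it passed in each.

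The sequences before the starts of Pdgfra and of Pdgfa, a ligand gene of the same receptor that moved in the opposite direction, are shown for comparison. RefSeq windows were found for 5 of the 6 genes (Pdgfrb had none) on rat build GRCr8. The build behind the counts is not known here, and no reads were placed by these coordinates. Only bases before the outermost annotated start of each gene are printed, 5′ to 3′ on the gene's strand, which is 250 bases for Pdgfa (chr12:20759116-20759365, plus strand) and 162 for Pdgfra (chr14:33408605-33408766, minus strand), with matches to the searched motifs in capitals.
Pdgfa: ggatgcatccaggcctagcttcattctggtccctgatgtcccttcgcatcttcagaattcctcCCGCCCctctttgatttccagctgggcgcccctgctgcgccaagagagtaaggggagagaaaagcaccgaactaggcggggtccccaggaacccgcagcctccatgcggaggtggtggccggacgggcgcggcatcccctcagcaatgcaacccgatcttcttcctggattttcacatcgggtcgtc
Pdgfra: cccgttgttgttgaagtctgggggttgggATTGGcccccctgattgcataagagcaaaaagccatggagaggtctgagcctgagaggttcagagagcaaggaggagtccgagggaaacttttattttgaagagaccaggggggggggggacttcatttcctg

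The capitals in Pdgfa mark the GC box GGGCGG on the reverse strand, and those in Pdgfra the letters CCAAT on the reverse strand. The motifs searched on both strands of the 250 bases before the start were the GC box (GGGCGG), the TATA box written as TATAAA, the CCAAT box, the AP-1 site written as TGANTCA and the E-box (CACGTG). No match overlapped a match of another motif in these windows. GGGCGG was found once in each of Pdgfa, Pdgfb and Pdgfd and not in Pdgfc or Pdgfra, and 30.5% of all 33469 promoter windows hold it. The Pdgfd match lay after the outermost annotated start of that gene. The start used for Pdgfc lay 1759 bases after its outermost one, so its whole window lay inside the gene. In Pdgfra the letters CCAAT occurred once, as in 34.0% of all windows, and TGANTCA once, as in 6.34%, the latter in the bases not printed. Neither the TATA box nor the E-box was found in the 5 windows. The Pdgfa window was 60.8% G and C and the Pdgfra window 47.2%, against a median of 51.2% over all windows. A match is a description of letters and not evidence of binding.

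Set per length, the order of the receptors reversed between the groups. Without scaling by length it did not. Pdgfra stood above Pdgfrb in both groups, at 1617 against 632 CPM in EMSC and 837 against 738 CPM in NPS-EMSC. The reversal in FPKM thus rests on the fixed gene lengths behind it, 7631 bases for Pdgfra and 5394 for Pdgfrb. Pdgfra exceeded Pdgfrb in EMSC, at 1.73, 1.74 and 1.96 times its FPKM, and was below it in NPS-EMSC, at 0.795, 0.796 and 0.813 times. As a mean share of the summed receptor FPKM, Pdgfra held 64.4% ± 1.63 (SD, n = 3) in EMSC and 44.5% ± 0.312 in NPS-EMSC. The summed receptor level was 334 ± 13.8 FPKM in EMSC and 243 ± 5.19 in NPS-EMSC. Among ligands, Pdgfc held 84.5% ± 1.81 of the summed FPKM in EMSC and Pdgfa 10.45% ± 1.28. In NPS-EMSC, Pdgfc held 48.6% ± 0.890 and Pdgfa 46.5% ± 1.10, so that the ratio of Pdgfc to Pdgfa went from 7.11, 9.49 and 7.96 to 1.002, 1.04 and 1.09. The share of Pdgfd was 4.97% ± 0.769 in EMSC and 4.89% ± 0.240 in NPS-EMSC, with overlapping values. The summed ligand level was 68.9 ± 3.82 FPKM in EMSC and 35.4 ± 0.766 in NPS-EMSC. These shares are a description of the same counts and carry no test of their own.

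**Figure D2:**
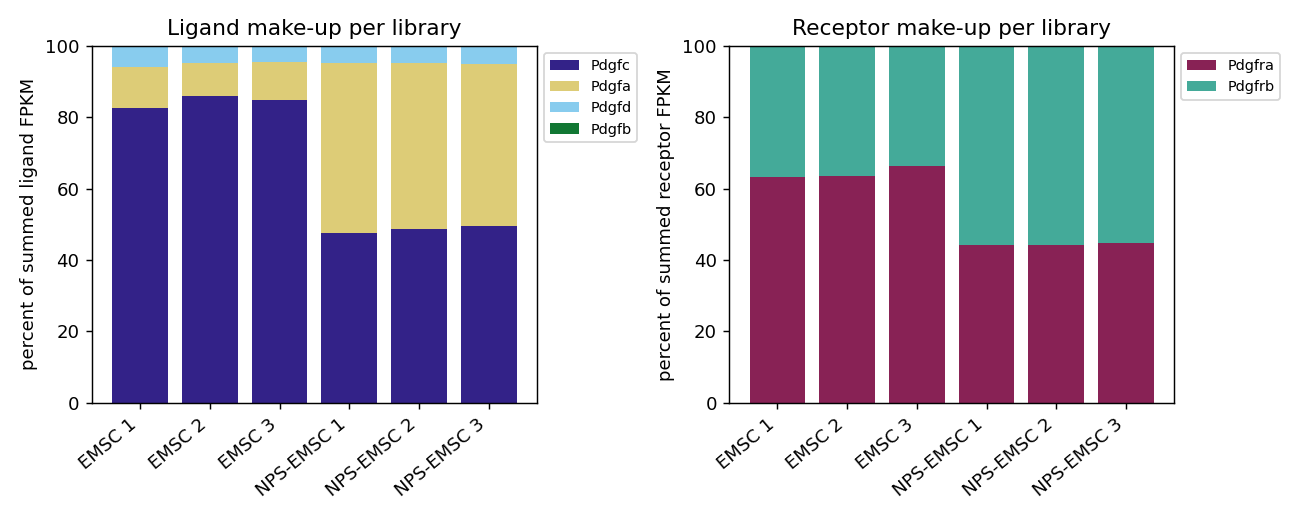
Share of each ligand gene in the summed ligand FPKM (left, percent) and of each receptor gene in the summed receptor FPKM (right, percent), with 1 bar for each library. Pdgfa grows from 9.07% to 11.6% of the ligand sum in EMSC to 45.4% to 47.6% in NPS-EMSC, and Pdgfrb from 33.8% to 36.6% of the receptor sum to 55.2% to 55.7%.

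The genes that pass on the receptor signal changed in both directions. Of 23 tested adaptors and enzymes that bind the activated receptors, 5 were higher, 9 lower and 9 did not pass, a share called that is near the 59.3% of all genes tested, with a median log2 change of -0.10. The count of 5 dropped to 3 with upper-quartile factors and without EMSC replicate 3 or NPS-EMSC replicate 2. Pik3r1, the main regulatory subunit of PI3K, fell from 221 ± 16.7 to 144 ± 4.43 CPM (SD, n = 3; log2 change -0.62, SE 0.05, adjusted p = 1.56e-10). Rasa1, the Ras GTPase-activating protein that docks on Pdgfrb, fell from 113 ± 5.43 to 71.7 ± 3.23 CPM (log2 change -0.66, SE 0.05), and the adaptor gene Grb10 from 613 ± 7.62 to 383 ± 20.4 CPM. In the other direction, the PI3K catalytic subunit gene Pik3cb rose 1.53-fold to 20.6 ± 1.07 CPM and Src, the founding kinase of its family, from 74.1 ± 3.13 to 89.2 ± 4.19 CPM. The adaptor genes Grb2 and Shc1 did not pass, with log2 changes of 0.07 and -0.10.

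Of 8 tested phosphatases, ubiquitin ligases and associated genes that act on the activated receptors, 5 rose, 2 fell and 1 did not pass, with a median of 0.30. Over all genes tested, 29.7% were called higher and 29.5% lower, and the list was not tested against them. The count of 2 dropped to 1 with DESeq2 and when any library but EMSC replicate 1 or NPS-EMSC replicate 1 was left out. Cblb, a ubiquitin ligase that tags activated receptors for degradation, rose from 61.8 ± 1.73 to 95.2 ± 7.53 CPM (SD, n = 3; log2 change 0.62, SE 0.06, adjusted p = 7.76e-10). The phosphatase genes Ptpn2 and Ptpn1 rose 1.44-fold and 1.24-fold. Sh3kbp1, an adaptor of Cbl proteins in receptor uptake, fell from 2.96 ± 0.767 to 0.733 ± 0.0985 CPM, and the phosphatase gene Ptprj had a log2 change of -0.29 (adjusted p = 0.0335).

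Among 9 tested proteases that process PDGF chains and their inhibitors, 3 rose, 2 fell and 4 did not pass, with a median of 0.02, and the share called was near the background of 59.3%. Plau, the urokinase that can activate the D chain, rose from 14.6 ± 1.40 to 43.9 ± 2.46 CPM (SD, n = 3; log2 change 1.58, SE 0.08, adjusted p = 1.24e-14). Serpini1, the gene of neuroserpin, an inhibitor of tissue plasminogen activator, rose from 1.51 ± 0.452 to 3.92 ± 0.320 CPM. Plat, the tissue plasminogen activator that can activate the C chain, did not pass, at 33.9 CPM in EMSC and 36.7 in NPS-EMSC (log2 change 0.11, adjusted p = 0.180). Furin, whose protease cleaves the A and B chain precursors, did not pass either (log2 change 0.02, adjusted p = 0.695), and the related convertase gene Pcsk6 fell 2.43-fold.

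Of 10 tested co-receptors and ligand-binding proteins, 2 rose, 6 fell and 2 did not pass, with a median of -0.25, beside 29.7% called higher and 29.5% lower over all genes tested. Nrp1, a co-receptor of several growth factors, fell from 184 ± 14.8 to 50.4 ± 0.280 CPM (SD, n = 3; log2 change -1.87, SE 0.06, adjusted p = 1.16e-19). Cspg4, the NG2 proteoglycan that binds the A chain, rose from 30.9 ± 2.54 to 59.2 ± 0.701 CPM (log2 change 0.94, SE 0.07). Sparc, a matrix protein that binds PDGF, rose 1.36-fold to 6945 ± 105 CPM, and A2m, an extracellular protease inhibitor that also carries growth factors, fell 9.82-fold from 6.20 ± 0.838 CPM.

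Immediate-early genes, which many growth factors including PDGF induce, were split in direction. Of 27 tested, 11 rose, 12 fell and 4 did not pass, with a median of 0.07, beside 29.7% called higher and 29.5% lower over all genes tested. Klf4, a repressor of smooth muscle genes, fell from 138 ± 4.09 to 41.8 ± 2.21 CPM (SD, n = 3; log2 change -1.72, SE 0.05, adjusted p = 2.66e-19), and Fos fell 2.09-fold. The MAP kinase phosphatase gene Dusp1 rose 1.92-fold, the antiproliferative gene Btg2 2.08-fold, and the chemokine gene Ccl7 from 26.7 ± 2.35 to 125 ± 14.6 CPM. Of the 13 tested genes of the primary cilium, an organelle through which Pdgfra signals in fibroblasts, 2 rose, 6 fell and 5 did not pass, with a median of -0.19 and a share called near the background of 59.3%. The count of 2 dropped to 0 without EMSC replicate 1 or NPS-EMSC replicate 3. Arl13b and Ift88, genes of ciliary structure and transport, fell 1.30-fold and 1.36-fold.

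Of 11 tested vascular growth factors, class III receptors and their relatives, 6 rose, 1 fell and 4 did not pass, with a median of 0.91. Over all genes tested, 29.7% were called higher and 29.5% lower, and this list was not tested against them. Vegfd rose from 699 ± 42.8 to 1754 ± 29.3 CPM (SD, n = 3; log2 change 1.33, SE 0.05, adjusted p = 1.09e-17), and Vegfa, Vegfc and Kitlg rose 2.21-fold, 1.78-fold and 1.89-fold. The receptor gene Csf1r fell from 0.546 ± 0.355 to 0.0431 ± 0.0298 CPM, at the edge of detection, and was not tested under the filter of 1 CPM.

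**Figure D3:**
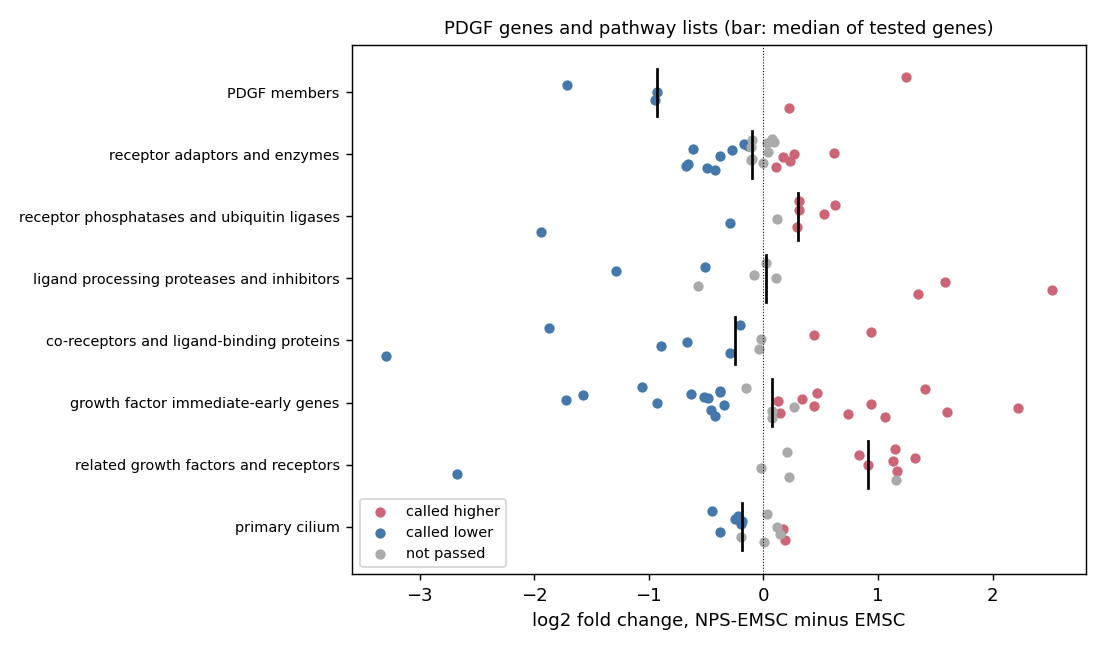
Log2 change of NPS-EMSC minus EMSC (horizontal axis) for the tested PDGF genes and for the tested members of 7 pathway lists, with 1 point for each gene, coloured by call, and a bar at each median. The 5 tested PDGF genes run from -1.72 to 1.24, and the related growth factors lie mostly to the right, with a median of 0.91.

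Markers of fibroblasts, mural cells and macrophages also differed between the groups, read against 29.7% of all genes tested called higher and 29.5% lower. Of 12 tested fibroblast markers, 5 rose and 7 fell, with a median of -0.20 and a summed level that overlapped between the groups, 26984 to 29998 CPM in EMSC and 26763 to 28158 in NPS-EMSC. Dcn and Lum fell 3.07-fold and 2.54-fold, Thy1 rose 2.92-fold and Col3a1 1.48-fold. Of 12 tested mural cell markers, 8 rose and 2 fell, with a median of 1.61 and a summed level of 1724 to 1841 CPM in EMSC and 5788 to 5847 in NPS-EMSC. Myh11, a smooth muscle myosin, rose 25.4-fold and Acta2, smooth muscle actin, from 318 ± 26.0 to 1652 ± 43.95 CPM, while Cd248 and Notch3 fell 3.10-fold and 3.32-fold and the pericyte genes Rgs5 and Kcnj8 were not testable. Of 9 tested macrophage markers, 8 fell and 1 rose (3 fell under a filter of 1 CPM), with the summed levels given above. Among those that fell, Ptprc, Csf1r, C1qa and Tyrobp had means under 1 CPM already in EMSC. Lyz2 fell from 52.5 ± 7.70 to 3.84 ± 0.940 CPM and Cd14 rose 2.07-fold. The part of these cell types in the PDGF changes was not tested.

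For each tested PDGF gene the 3 most similar genes were found by the Euclidean distance between log2 CPM values centred on each gene's mean over the 6 libraries, among 12636 genes with a mean of at least 1 CPM. Pdgfc was nearest to the semaphorin co-receptor gene Nrp2 at a distance of 0.10, then to Boc and Ppfibp2. Pdgfa was nearest to Ptp4a1 at 0.10, then to Penk and Srgn. Pdgfd was nearest to Fanca at 0.10, then to Nkain4 and Zfp213. Pdgfra was nearest to Sh3bp5 at 0.047, then to Aox1 and Cnnm3. Pdgfrb was nearest to the adaptor gene Crk at 0.030, then to P3h4 and Fermt2. With 2 groups of 3 libraries, these neighbours share chiefly the size of the group difference.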

How the data were processed

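The authors deposited raw read counts per gene and FPKM values for 3 EMSC and 3 NPS-EMSC libraries. Tools named in the submitters' processing notes, without a stated role, are HISAT2, fastp, StringTie, HTSeq, R 3.2.0 and DESeq; the build, annotation and strand setting were not given in the sources used here. The deposited FPKM values equalled the counts divided by 1 fixed length per gene and the library total, within 0.1 percent, for 20653 genes. Counts were tested with edgeR 4.0.16 in R 4.3.3 (quasi-likelihood F test, TMM, filterByExpr with a minimum count of 10 and minimum total of 15), with Benjamini-Hochberg adjustment over all 14505 genes tested. CPM uses TMM-scaled totals, FPKM unscaled ones. Fold changes use a prior count of 2; the SE is the size of the log2 change over the square root of F, a rough guide. The procedure was also run on simulated counts in which far fewer genes changed than were called here. That run does not show how the procedure performs on data like these. Alternatives used DESeq2 1.42.0, limma 3.58.1, other scalings, filters and thresholds, a replicate block, and leaving out each library. Named genes were the PDGF genes, Nps, up to 4 called members of each list by smallest p, up to 3 called against their list's majority, and the nearest genes; some are not reported here, and genes named because they did not pass were chosen after their values were seen. The PDGF genes and the lists were chosen with earlier results of these data known.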

Additional observations from a re-analysis of the deposited data

How the results depend on the processing

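All 5 tested PDGF genes kept their direction and their call in all 17 alternatives. Pdgfa ranged from 1.10 to 1.27 on the log2 scale, Pdgfc from -1.79 to -1.66, Pdgfd from -1.01 to -0.69, Pdgfra from -0.99 to -0.90 and Pdgfrb from 0.18 to 0.24 (adjusted p at most 0.00191). Over all genes, 8600 were called, and 7870 to 8341 when 1 library was left out. With the replicate number as a replicate block 8588 were called. Same-numbered libraries had correlations of deviations of -0.039, 0.046 and 0.036, so no shared deviation by number was seen. With 3 libraries in each group, this cannot show whether the libraries were paired. Scaling by library totals alone was chosen after seeing the data.

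The list counts that moved were small. Adaptors called higher numbered 5, and 3 with upper-quartile factors, library totals, log2(FPKM + 1), log2(FPKM + 0.1) or an adjusted p under 0.01, and 3 to 4 with 1 library left out (3 without EMSC replicate 3 or NPS-EMSC replicate 2). Phosphatases and ligases called lower numbered 2, and 1 with DESeq2, log2(FPKM + 0.1) or an adjusted p under 0.01, and 1 to 2 with 1 library left out (1 without EMSC replicate 2 or 3 or NPS-EMSC replicate 2 or 3). Cilium genes called higher numbered 2, 1 with upper-quartile factors, 0 with library totals, either FPKM scale or an adjusted p under 0.01, and 0 to 2 with 1 library left out (0 without EMSC replicate 1 or NPS-EMSC replicate 3, 1 without EMSC replicate 2 or NPS-EMSC replicate 1). Related genes called lower numbered 1, and 0 under the filter of 1 CPM or either FPKM scale. Macrophage markers called lower numbered 8, 3 under the filter of 1 CPM and 4 on either FPKM scale, where fewer were tested. Endothelial markers called lower numbered 0, and 1 with upper-quartile factors, library totals, no filter or the filter of 1 CPM, and 0 to 1 with 1 library left out (1 without EMSC replicate 3). Epithelial markers called lower numbered 0, and 1 with no filter or DESeq2. Progenitor markers called lower numbered 2, and 1 on either FPKM scale. Elsewhere the cause was not tested. Pdgfb had 11 reads in all and did not pass the main filter on low counts.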

Other observations

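Pdgfrl, the gene of a PDGF receptor-like protein without a kinase domain, is no member of the set and was chosen after its values were seen. It stood at 33.8, 35.6 and 34.1 FPKM in the EMSC libraries and at 6.84, 7.23 and 6.59 FPKM in the NPS-EMSC libraries, with no overlap. It fell from 50.6 ± 1.93 to 10.4 ± 0.460 CPM (SD, n = 3; edgeR log2 change -2.28, SE 0.08, adjusted p = 2.02e-18), or 4.85-fold, a larger fitted change than that of any of the 5 tested PDGF genes.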
